A study of Mus musculus with 6 samples.

Results

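The 10 immediate early genes Fos, Fosb, Jun, Junb, Jund, Egr1, Egr3, Ier2, Ier5 and Nr4a1 were taken by symbol from a table of 17524 genes measured in the trigeminal ganglion of the mouse, and all 10 were present and tested. The trigeminal ganglion holds the sensory neurons of the face and the meninges, with their satellite glia and Schwann cells. Whole ganglion RNA was sequenced from wild-type mice given NTG (3 libraries) and from wild-type mice given vehicle (3 libraries), and both groups carried the same WT label. NTG is left unexpanded in the labels. Work on migraine in mice often writes nitroglycerin, which releases nitric oxide, this way. The labels give neither dose, route and time after treatment nor sex, age and pooling. They do not say whether the 3 libraries of a group are from different animals, and the p-values cover only the variation among these libraries, which may be technical.

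Immediate early genes are transcribed within minutes of a stimulus, without new protein synthesis, from promoters that are held ready for phosphorylated CREB and for serum response factor with its ternary complex partners. In sensory neurons their induction follows calcium entry and MAP kinase signalling, and c-Fos protein is a common marker of activated neurons in migraine models. Their mRNAs are short-lived, so their level reflects recent transcription, and glia, endothelium and immune cells express them as well as neurons. Jun differs from most of them in that it is also held at a raised level in injured sensory neurons, and Jund is expressed at a steady level in most cells.

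The stretch of 250 bases before an annotated transcription start was read from RefSeq (GRCm38.p6) for 7 of the 10 genes, namely Fos, Fosb, Jun, Junb, Jund, Ier5 and Nr4a1. The cyclic AMP response element (CRE) is the CREB site TGACGTCA, and its core TGACG is part of that site. Both strands were searched, and a match is a description of the letters, not a site in use. The full site TGACGTCA was in none of the 7 windows and in 1.55% of all 32851 windows of this length. The core TGACG was in the windows of 4 genes, Fos, Fosb, Junb and Nr4a1, against 17.8% of all windows. The EGR site GCGNGGGCG was in the windows of Fosb and Nr4a1 (4.70% of all windows) and overlapped no TGACG there. The AP-1 site TGANTCA (6.75% of all windows) and the CArG box of serum response factor (1.47%) were in none of the 7. Bases farther upstream than 250 were not searched, and no window was read for Egr1, Egr3 and Ier2. A site missing from these windows may therefore lie outside them. The windows with the core are shown because they join members that fell (Junb and Nr4a1) with the 2 that did not pass the test (Fos and Fosb). They run 5′ to 3′ on the strand of the gene, and capitals mark TGACG or its reverse complement.
Fos, chr12:85473640-85473889, plus strand: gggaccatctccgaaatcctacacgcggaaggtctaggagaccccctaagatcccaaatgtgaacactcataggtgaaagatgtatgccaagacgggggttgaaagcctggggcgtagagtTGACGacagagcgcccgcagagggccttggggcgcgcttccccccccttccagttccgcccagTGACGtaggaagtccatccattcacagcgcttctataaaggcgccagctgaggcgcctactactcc
Fosb, chr7:19310046-19310295, minus strand: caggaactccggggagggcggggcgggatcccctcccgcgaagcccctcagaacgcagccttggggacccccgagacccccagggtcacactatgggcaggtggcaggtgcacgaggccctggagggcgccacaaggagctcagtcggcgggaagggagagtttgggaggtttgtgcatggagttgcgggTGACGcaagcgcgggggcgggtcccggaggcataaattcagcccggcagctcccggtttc
Junb, chr8:84978749-84978998, minus strand: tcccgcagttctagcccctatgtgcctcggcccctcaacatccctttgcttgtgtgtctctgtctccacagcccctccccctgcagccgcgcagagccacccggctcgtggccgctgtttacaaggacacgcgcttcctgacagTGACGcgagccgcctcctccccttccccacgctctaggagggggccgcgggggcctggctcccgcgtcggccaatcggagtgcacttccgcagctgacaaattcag
Nr4a1, chr15:101266596-101266845, plus strand: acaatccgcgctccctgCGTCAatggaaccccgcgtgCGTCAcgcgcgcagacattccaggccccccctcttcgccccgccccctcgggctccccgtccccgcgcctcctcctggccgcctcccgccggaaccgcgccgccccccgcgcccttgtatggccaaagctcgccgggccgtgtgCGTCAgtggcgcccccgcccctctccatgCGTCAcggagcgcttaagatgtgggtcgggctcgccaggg
In Fos the core began 129 and 66 bases before the start, in Fosb 60 and in Junb 106. Nr4a1 held 4 matches, all on the opposite strand, and its window lies before 1 of its annotated starts, inside the interval the table gives for the gene. The Fosb window likewise runs into the interval given for Fosb, which ends at 19310118. Its TGACG and EGR matches lie inside that interval. The Jund window, not shown, lies before an interval of 2878 bases, while the transcript used for Jund is 1 exon of 1668 bases. That window may thus not adjoin the start of this transcript.

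Libraries held 19248592 to 23774244 reads in NTG and 18813027 to 20191300 in vehicle, and 3 reads were worth 0.126 to 0.159 CPM, a floor for counting error only. Values are normalised reads, the deposited gene counts divided by a factor per library. Over all 17475 genes tested, 2364 (13.5%) were lower and 2148 (12.3%) higher in NTG at an adjusted p under 0.05 (limma-trend on log2(value + 1), two-sided, Benjamini-Hochberg). The direction of change followed transcript base composition: the median log2 fold change of protein-coding genes was -0.31 in the decile of highest GC content and 0.32 in the decile of lowest GC content. Sensory neuron markers (Rbfox3, Tubb3, Snap25, Prph, Scn10a, Isl1, Pou4f1 and Avil) were present in every library, at summed levels of 6609 to 6925 CPM in NTG and 6887 to 7052 in vehicle, with 2 of the 8 lower and 1 higher. Rbfox3 (log2 fold change -0.53, limma adjusted p = 6.28e-06) and Pou4f1 (-0.41, 0.000199) were lower and Snap25 (0.13, 0.0385) higher. With the trend over GC content and length removed, as described below, Rbfox3 and Pou4f1 were lower and Tubb3 and Prph higher.

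Of the 10 immediate early genes, 8 fell in NTG and 0 rose, where 13.5% of all genes tested fell. Those that fell were Jun, Junb, Jund, Egr1, Egr3, Ier2, Ier5 and Nr4a1, by 1.31-fold to 1.79-fold. In these 8 genes every NTG value lay below every vehicle value, which held in that direction for 20% of all genes. Fos and Fosb did not pass. At an unadjusted p under 0.05 the counts were the same, 8 and 0, and so were the counts called by edgeR and by DESeq2 on the recovered reads. Against a minimum fold of 1.2, which 1.35% of all genes passed on the lower side, Jun, Jund and Egr3 passed. The median log2 fold change of the 10 was -0.56, against 0.00 over all genes tested. The 10 genes were picked out with earlier results of these data known, and their mRNA levels share libraries, so the count describes these libraries. In whole ganglia, fewer cells of a type and less RNA per cell cannot be told apart.

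**Figure D1:**
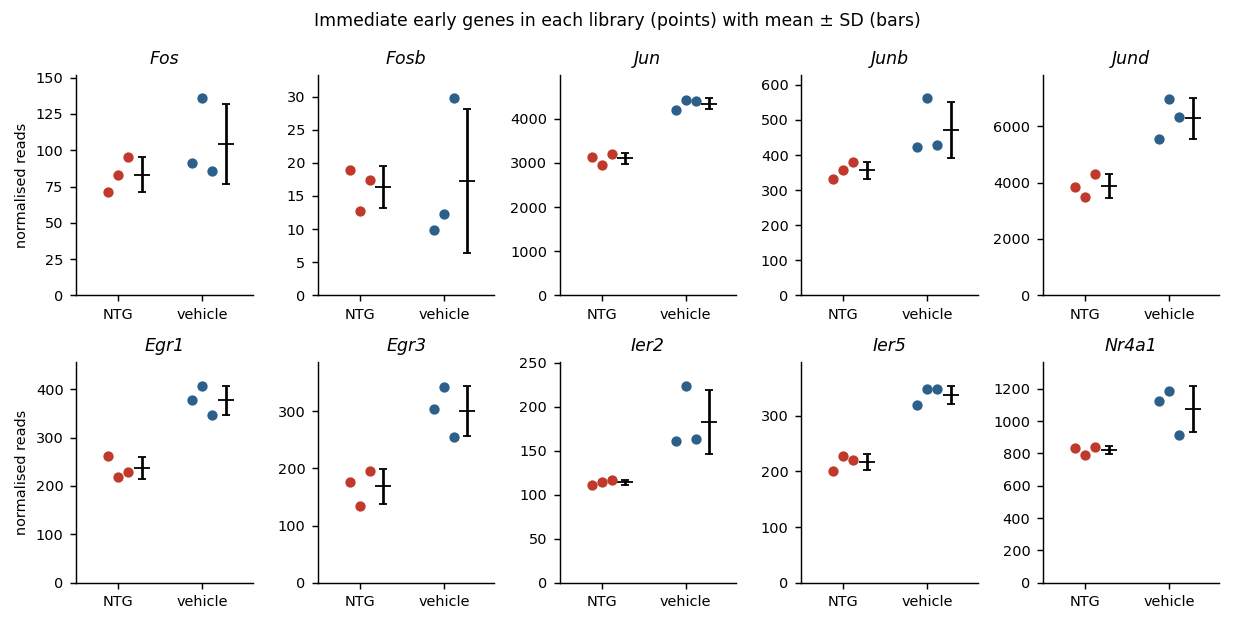
Normalised reads (vertical axes, from 0) of each of the 10 genes in the 3 NTG libraries (red, left) and the 3 vehicle libraries (blue, right), with the mean ± SD as a black bar beside each group. In 8 of the 10 panels the groups do not overlap, and Fos and Fosb are the exceptions.

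The AP-1 transcription factor is a dimer of a Fos and a Jun protein, or of Jun proteins alone, joined by leucine zippers. Jund, on chromosome 8 (70697739 to 70700616, plus strand), had 3851, 3474 and 4312 normalised reads in NTG, against 5524, 6956 and 6322 in vehicle. The highest NTG library stayed well below the lowest vehicle library. The mean was 3879 ± 419.7 in NTG and 6267 ± 718 in vehicle (SD, n = 3 each), or -0.69 ± 0.09 on the log2 scale (SE, limma adjusted p = 0.00032).

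Jun, on chromosome 4 (95049036 to 95052222, minus strand), encodes the most strongly transactivating of the Jun proteins. It had 3144, 2960 and 3200 normalised reads in NTG, against 4199, 4420 and 4403 in vehicle. Its libraries were tight within each group (a coefficient of variation of 4.06% in NTG and 2.84% in vehicle), the smallest vehicle spread among the 10. On the log2 scale the difference was -0.49 ± 0.06 (SE), with a 95% interval of -0.60 to -0.37 and a limma adjusted p of 6.17e-06.

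Junb, on chromosome 8 (84976909 to 84978748, minus strand), encodes a Jun protein that can restrain Jun. It had 332, 356 and 381 normalised reads in NTG, against 424, 562 and 427 in vehicle. Vehicle replicate 2 stood above the other two vehicle libraries, which lay near the NTG values. This gave a log2 fold change of -0.39 ± 0.11 (SE), with a limma adjusted p of 0.0146. Junb did not pass without vehicle replicate 2 (log2 fold change -0.26, limma adjusted p = 0.109) or without NTG replicate 1 (-0.34, 0.0725).

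Fos, on chromosome 12 (85473890 to 85477274, plus strand), is the classic activity-induced gene. It had 71.2, 83.2 and 95.4 normalised reads in NTG, against 91.5, 136 and 85.9 in vehicle. The groups overlapped, and vehicle replicate 2 was again the highest library. At -0.30 ± 0.21 (SE), its log2 fold change did not pass (limma adjusted p = 0.316), and the 95% interval of -0.74 to 0.14 takes in both the fall of Jun and no change.

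Fosb, on chromosome 7 (19302696 to 19310118, minus strand), encodes FosB and the stable splice form ΔFosB, which gathers with repeated stimulation. It had 18.9, 12.8 and 17.3 normalised reads in NTG, against 9.81, 12.4 and 29.7 in vehicle. These came from 12 to 20 reads per library in NTG and 9 to 27 in vehicle, and the vehicle libraries spread 3.03-fold. Its log2 fold change was 0.06 (limma adjusted p = 0.944), with a 95% interval of -0.92 to 1.04. A difference of the size seen in the other members lies within this interval and was not detectable in these libraries. The mean was 16.3 ± 3.15 in NTG and 17.3 ± 10.9 in vehicle (SD, n = 3 each), lower in NTG, while the log2 difference was above 0, and that sign turned under 6 of the alternatives tried.

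Egr1 and Egr3 encode zinc finger transcription factors of the early growth response family. Egr1 is induced through serum response elements in many cell types, and Egr3 is itself a target of Egr1 in neurons and is needed for muscle spindle sensory endings to form. Egr3, on chromosome 14 (70077317 to 70082613, plus strand), had 176, 134 and 195 normalised reads in NTG, against 304, 343 and 254 in vehicle. It had the largest fold change of the 10, -0.84 ± 0.15 on the log2 scale (SE, limma adjusted p = 0.000419). The mean was 168 ± 31.0 in NTG and 300.4 ± 44.3 in vehicle (SD, n = 3 each), and the groups stayed apart although both spread widely.

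Egr1, on chromosome 18 (34861207 to 34864956, plus strand), had 263, 219 and 230 normalised reads in NTG, against 377, 408 and 347 in vehicle. All 3 vehicle libraries were above all 3 NTG libraries, with a gap wider than the range within either group. Its log2 fold change was -0.67, with an SE of 0.12 and a limma adjusted p of 0.000302.

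Ier2 and Ier5 encode small nuclear proteins with a shared amino-terminal domain, and Ier5 is known to act on heat shock factor 1 together with the phosphatase PP2A. Ier5, on chromosome 1 (155096367 to 155099636, minus strand), had 201, 228 and 221 normalised reads in NTG, against 318, 347 and 347 in vehicle. The groups were tight and far apart. The difference on the log2 scale was -0.64 ± 0.12 (SE), with a limma adjusted p of 0.000443.

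Ier2, on chromosome 8 (84661331 to 84662852, minus strand), had 111, 114 and 117 normalised reads in NTG, against 161, 224 and 163 in vehicle. The NTG libraries were nearly equal, and vehicle replicate 2 stood apart from the other vehicle libraries on the high side. Ier2 fell by 0.66 on the log2 scale, with an SE of 0.16 and a limma adjusted p of 0.00525.

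Nr4a1 encodes the orphan nuclear receptor Nur77, which binds DNA without a known ligand. On chromosome 15 (101253902 to 101274795, plus strand), it had 832, 791 and 838 normalised reads in NTG, against 1128, 1189 and 917 in vehicle. Vehicle replicate 3 was the closest to the NTG libraries, which differed little among themselves. Nr4a1 fell by 0.38 on the log2 scale, with an SE of 0.09 and a limma adjusted p of 0.00265. None of the 10 genes overlaps another gene of the table or of the RefSeq gene list on either strand.

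Levels per kilobase of annotated transcript, in normalised reads, placed Jund first (2325 ± 252 in NTG and 3757 ± 430 in vehicle, SD, n = 3 each) and Jun next (972 ± 39.4 and 1361 ± 38.6). The Jund transcript used is 1668 bases, while its gene interval in the table is 2878. Per kilobase of that interval Jund stood at 1348 in NTG and 2178 in vehicle, still above Jun. Nr4a1 (331 ± 10.3 in NTG and 435 ± 57.7 in vehicle) and Junb (197 ± 13.7 and 260 ± 43.5) followed, with ranges that did not touch. Egr1 (78.1 and 124), Ier2 (74.9 and 120) and Ier5 (66.2 and 103) came next. The ranges of Egr1 and Ier2 overlapped in both groups. Ier5 lay below Ier2 in NTG without overlap, and its highest vehicle library, at 105.9, was level with the lowest of Ier2, at 106.0. Egr3 (42.8 in NTG and 76.2 in vehicle) and Fos (39.5 and 49.5) overlapped in NTG and were barely separate in vehicle, at 64.6 for the lowest Egr3 library and 64.5 for the highest Fos library. Fosb was last, at 4.32 in NTG and 4.57 in vehicle.

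Vehicle replicate 2 held the highest vehicle value in 8 of the 10 genes, all but Fosb and Ier5. NTG replicate 3 held the highest NTG value in 7. Averaged over the 10 genes, the log2 difference from the mean of all 6 libraries was -0.25, -0.34 and -0.16 in NTG and 0.12, 0.39 and 0.24 in vehicle. With vehicle replicate 2 left out, 7 of the 10 genes fell, Junb being the one lost.

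**Figure D2:**
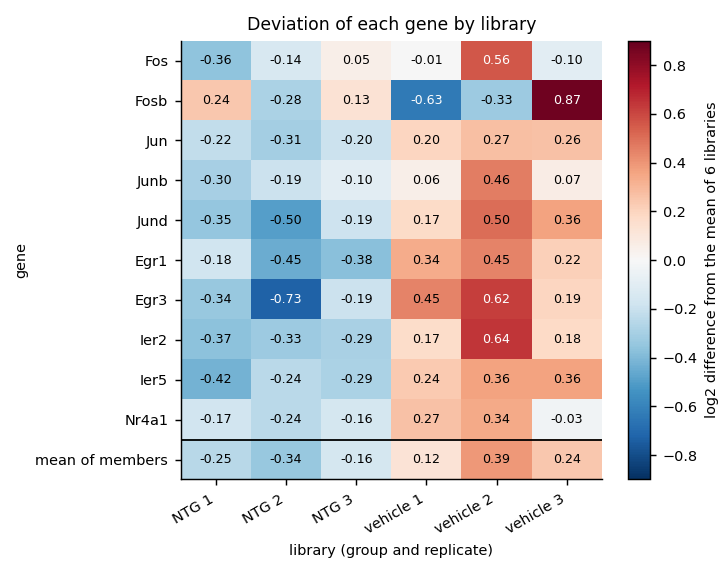
Difference of each gene from its own mean over the 6 libraries on the log2(value + 1) scale (colour and printed value), with NTG libraries in the left 3 columns, vehicle libraries in the right 3, and the mean over the 10 genes in the last row. The NTG columns are below 0 for every gene but Fos in replicate 3 and Fosb in replicates 1 and 3, and vehicle replicate 2 is the highest of the row means at 0.39.

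The 10 transcripts lie on the same side of the median in base composition, and some share a structure. They spread from decile 6 to decile 10, the highest, of the GC content of coding genes. All 10 have a GC content above that of the median gene tested (50.5%), between 51.3% (Egr3) and 67.1% (Jund). Jun, Junb, Jund, Ier2 and Ier5 have 1 exon. Of the 6797 protein-coding genes tested within that range of GC content, 27.5% fell and 0.986% rose, and of 365 protein-coding genes with 1 exon, 23% fell and 4.66% rose. Their median log2 fold changes were -0.16 and -0.13, against -0.56 for the 10 genes.

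Each member was set beside coding genes in the same decile of GC content, and the members parted. Junb (GC content 62.6%, log2 fold change -0.39) was close to the median of its decile, -0.31, and 33.1% of the genes of that decile were lower still. Fos (51.9%, -0.30) had 9.48% of the genes of its decile below it. Egr3, Ier5 and Egr1 lay near the lower edge of theirs, with 0.874%, 2.29% and 3.36% of genes lower. Jund, Jun and Ier2 had 6.93%, 6.99% and 8.34% of genes lower, and Nr4a1 15.4%. Fosb was the only member above the median of its decile.

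**Figure D3:**
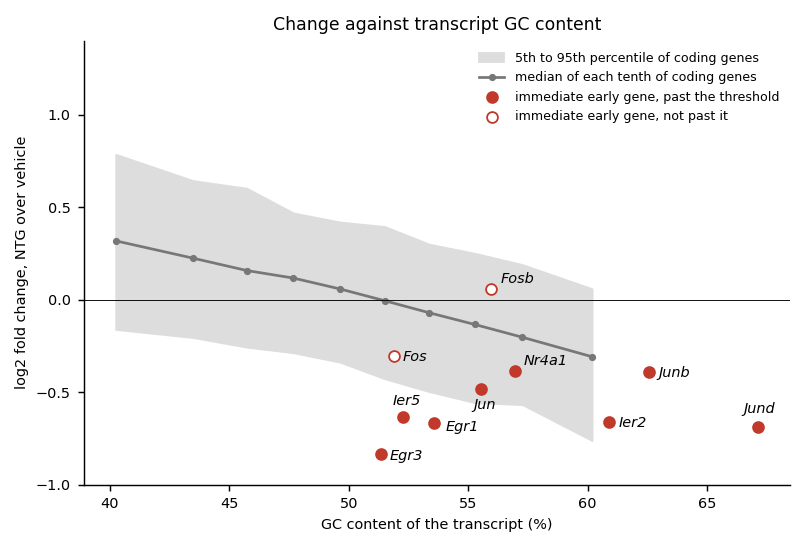
Log2 fold change of NTG over vehicle (vertical axis) against transcript GC content in percent (horizontal axis) for the 10 genes (filled where past the threshold), with the median (grey line) and the 5th to 95th percentile (grey band) of each decile of protein-coding genes. Egr3, Egr1 and Ier5 lie under the band at moderate GC content, while Junb, Ier2 and Jund lie to the right of the band, which is drawn up to the median GC content of the highest decile.

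A smooth trend over GC content and length of the transcript was next removed from every library. Of the 10 genes 4 then fell and 0 rose, where 4.95% of the 15084 genes so tested fell and 4.12% rose. At an unadjusted p under 0.05, 6 were lower and 0 higher. The 4 were Egr3 (log2 fold change -0.82, limma adjusted p = 0.000856), Ier5 (-0.58, 0.00158), Egr1 (-0.57, 0.00209) and Jun (-0.32, 0.000107). They fell again with each of the 6 libraries left out in turn. Jund moved to -0.09 (limma adjusted p = 0.286), Nr4a1 to -0.18 (0.193), Ier2 to -0.33 (0.21) and Junb to 0.01 (0.956), and none of them passed. Nr4a1 passed after the removal only without vehicle replicate 3. Whether the part of the difference that the trend takes away is technical was not tested. Egr3 has coding transcripts of 51.3% to 62.2% GC and Egr1 of 53.6% to 57.3%. With the mean over the coding transcripts in place of 1 transcript, Egr3 (-0.65, limma adjusted p = 0.00469) and Egr1 (-0.52, 0.00445) still fell.

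**Figure D4:**
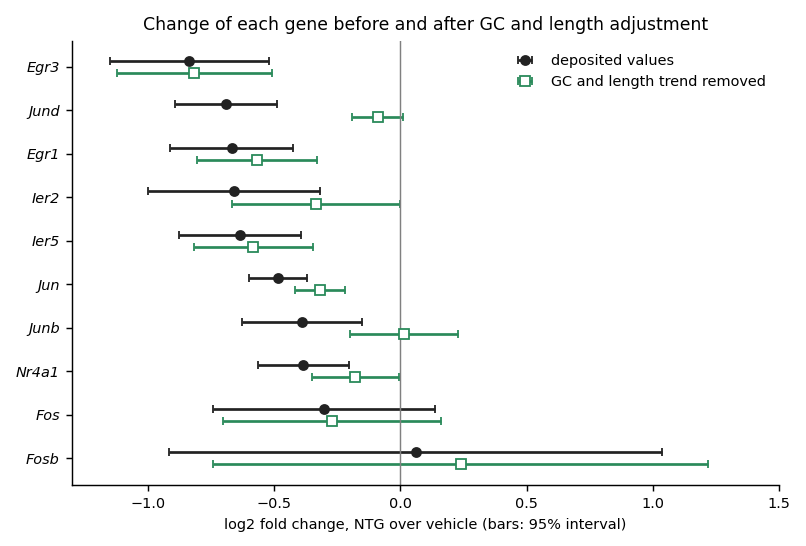
Log2 fold change of NTG over vehicle (horizontal axis) with its 95% interval for each of the 10 genes, on the deposited values (black circles) and after the trend over GC content and transcript length was taken out of each library (green squares). Egr3, Egr1, Ier5 and Jun have intervals below 0 in both, that of Jun nearer 0 after the removal, while Jund and Junb end near 0, at -0.09 and 0.01.

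The lists that follow are to be read against all genes tested, of which 13.5% fell and 12.3% rose, and 4.95% and 4.12% after the GC and length removal. Among 19 other immediate early transcription factors tested, 5 fell and 0 rose (median log2 fold change -0.22). At an unadjusted p under 0.05, 8 were lower and 1 higher, and edgeR also called 0 rises. Ier5l, a relative of Ier5, fell to 119 ± 14.4 normalised reads in NTG, against 234 ± 43.5 in vehicle (SD, n = 3 each, log2 fold change -0.96, limma adjusted p = 0.000229). Klf2, a Kruppel-like factor prominent in endothelium, stood at 269 ± 35.5 in NTG and 434 ± 93.8 in vehicle (-0.67, 0.00322). Nfil3, a bZIP repressor that acts in the circadian clock (-0.69, 0.00991), and Hes1, a target of Notch (-0.52, 0.0424), fell as well, and Maff, a small Maf protein, was the last of the 5 (-0.54, 0.0491). After the GC and length removal 1 of these genes passed, Ier5l (-0.48, 0.0456).

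Close relatives of the members were among those that did not pass. Egr2, a myelination factor of Schwann cells, stood at 1137 normalised reads in NTG and 900.4 in vehicle (limma adjusted p = 0.159), and Nr4a2 at 365 and 294 (0.0822). Nr4a3 stood at 24.8 in NTG and 40.1 in vehicle (0.125). Fosl2 stood at 259 and 312 (0.124), Atf3, a marker of injured neurons, at 157 and 168 (0.829), and Npas4, which is induced by calcium in neurons, at 13.4 and 16.2 (0.775). These relatives were chosen after their values were seen, and no difference between them and the members was tested.

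Of 29 effectors and feedback genes induced with this set, 7 fell and 3 rose (median log2 fold change -0.16). Those that rose were Tiparp (0.35, limma adjusted p = 0.019), Rgs2 (0.32, 0.0425) and Plk2 (0.27, 0.0263), named after their values were seen. Per1, a clock gene, fell to 1103 normalised reads in NTG, against 1452 in vehicle (-0.39, limma adjusted p = 0.0014). Dusp5 and Dusp1, phosphatases that switch off MAP kinases, had log2 fold changes of -0.47 (0.00316) and -0.37 (0.0103), and Ppp1r15a, a regulatory subunit that directs protein phosphatase 1 to eIF2 alpha, one of -0.29 (0.0127). Arc, a synaptic gene, stood at 90.9 in NTG and 103 in vehicle and did not pass (0.588). After the GC and length removal Per1, Dusp5, Dusp1 and Ppp1r15a did not pass. The 3 of the list that fell after it were Homer1 (-0.57, 0.000351), Spry2 (-0.37, 0.0218) and Btg1 (-0.29, 0.0413), named after their values were seen, and 0 rose (1 at an unadjusted p under 0.05).

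Upstream, 2 of 6 genes of serum response factor and its partners fell and 1 rose. Srf stood at 699 normalised reads in NTG and 925 in vehicle (log2 fold change -0.41, limma adjusted p = 0.00276), its coactivator Mrtfa at 716 and 953 (-0.41, 0.00119), and the ternary complex factor Elk4 at 545 and 453 (0.27, 0.0356). After the GC and length removal 0 of the 6 passed (1 higher at an unadjusted p under 0.05). Of 14 genes of CREB and its coactivators 6 fell and 2 rose. Creb1 rose to 896 in NTG, against 691 in vehicle (0.38, 0.00181), while the coactivators Crtc2 (-0.36, 0.00102) and Crtc1 (-0.31, 0.00274) and the protein kinase A subunit gene Prkaca (-0.31, 0.000534) fell. After the removal Prkaca (-0.17, 0.0272), Atf1 (-0.41, 0.0455) and Crebbp (-0.20, 0.0484) fell, the last 2 named after their values were seen, while Creb1 (0.05, 0.741), Crtc1 and Crtc2 did not pass, and 0 of the 14 rose at an adjusted or unadjusted p under 0.05.

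Of 17 MAP kinase genes 5 rose (29.4%) and 4 fell (23.5%), against 12.3% and 13.5% of all genes tested. After the removal 1 rose and 1 fell, near the shares over all genes after it. Rps6ka3, which encodes the kinase RSK2 that phosphorylates CREB, rose to 3314 normalised reads in NTG, against 2410 in vehicle (log2 fold change 0.46, limma adjusted p = 1.53e-05), and passed again after the removal (0.16, 0.0319). Mapk8, which encodes the Jun kinase JNK1, rose by 0.34 (0.00161). Map2k2 (-0.45, 7.05e-05) and Map2k7 (-0.36, 0.000192), kinases of the ERK and JNK branches, fell. Map2k7 fell after the removal as well (-0.18, 0.0301), while Mapk8 (0.03, 0.829) and Map2k2 (-0.13, 0.127) did not pass after it.

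Among 17 partners and cofactors of AP-1, EGR and NR4A proteins 5 fell and 2 rose. Maf, a bZIP factor of mechanosensory neurons, fell to 3725 normalised reads in NTG, against 5209 in vehicle (log2 fold change -0.49, limma adjusted p = 1.12e-05), also after the removal (-0.60). Nab2, a corepressor that EGR proteins induce and that binds them, fell by 0.49 on the log2 scale (0.000546). Rxrb, a partner of NR4A receptors (-0.32, 0.0018), and Mafg (-0.26, 0.00329) fell too. After the removal Maf alone of the 17 fell and 0 rose (1 at an unadjusted p under 0.05), with Nab2 at -0.18 (0.225), Mafg at -0.11 (0.16) and Rxrb at 0.04 (0.713). Of 10 factors that bind or shorten AU-rich mRNAs 4 fell and 3 rose. Hnrnpd, which encodes AUF1, fell by 0.39 on the log2 scale (0.000505) and by 0.64 after the removal. Khsrp (-0.37, 0.00034) and Zfp36l2 (-0.38, 0.0068) fell, and the deadenylase scaffold gene Cnot1 rose (0.25, 0.00561). After the removal 2 of the 10 fell, Hnrnpd and Zfp36l1 (-0.34, 0.0291), the last named after its values were seen, and 0 rose at an adjusted or unadjusted p under 0.05. Khsrp (-0.15, 0.0924), Zfp36l2 (-0.23, 0.105) and Cnot1 (0.09, 0.355) did not pass after it.

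**Figure D5:**
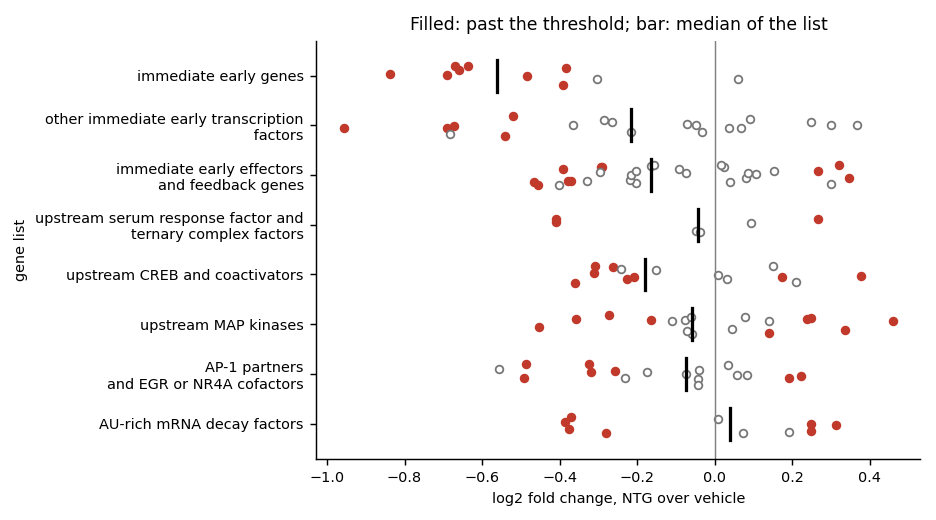
Log2 fold change of NTG over vehicle (horizontal axis) for every tested gene of the 10 members and 7 related lists (rows), filled where past the threshold, with a black bar at the median of each list. The median of the 10 members is -0.56, and those of the other lists lie between -0.22 and 0.04.

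Markers of other cells moved between the groups too. The summed level of 6 satellite glia markers was 4606 to 4786 CPM in NTG and 5046 to 5264 in vehicle, with 2 of 6 genes lower and 1 higher. That of 7 macrophage markers was 99.5 to 112 in NTG and 119 to 129 in vehicle (2 lower, 0 higher), and 1 macrophage marker was higher at an unadjusted p under 0.05. The 2 lower ones were C1qa and C1qb. After the GC and length removal C1qa (-0.26, limma adjusted p = 0.119) and C1qb (-0.27, 0.0857) did not pass, and 0 of the 7 fell or rose. At an unadjusted p under 0.05 after it, 2 macrophage markers were lower and 1 higher. The sum of 5 fibroblast markers was 914 to 1072 in NTG and 1085 to 1229 in vehicle, but its members went both ways. Col1a2 fell (-0.36, limma adjusted p = 6.59e-05) and Col1a1 stood at -0.58 (0.119), while Pdgfra, Dcn and Lum stood at 0.21, 0.18 and 0.35 without passing, and the list's median log2 fold change was 0.18. Skeletal muscle markers summed to 3.32 to 3.52 in NTG and 8.03 to 15.4 in vehicle (6 of 8 lower, 0 higher), and 3 of the 8 had at most 3 reads in some library. After the removal 4 of these 8 fell, as did 1 of the 6 satellite glia and 1 of the 5 fibroblast markers. In these 3 lists 0 rose after it, at an adjusted or unadjusted p under 0.05. Schwann cell, endothelial, smooth muscle, red cell and neutrophil sums overlapped between the groups. Of the markers analysed, 0 were at 0 in all libraries, and the neutrophil gene Retnlg was not analysed here. Their part in the difference of the immediate early genes was not tested.

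The 3 genes whose profile over the 6 libraries was most like the mean of the 10 members, among 12236 genes with a mean of at least 100 normalised reads, were Ppp3ca (Pearson's r = 0.998), Tafa5 (0.998) and Notch1 (0.997). All 3 fell, with log2 fold changes of -0.29, -0.51 and -0.50. The likeness is a description over 6 libraries that share the group difference, and 534 genes reached an r above 0.95.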

How the data were processed

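Gene expression in 6 bulk RNA libraries was read from 1 table. Per the labels' protocols, TRIzol RNA was selected on poly-T beads and sequenced in paired ends from strand-specific libraries. The submitters' processing notes name FastQC, HISAT2 and GRCm38. How reads were counted, with which strand setting, and how they were normalised is not given in the sources used here. The deposited values are a signal, gene counts divided by a factor per library. All values (100%) were whole multiples of 1 read within 0.01, so reads were recovered, and edgeR on these called 4544 genes. The values being normalised, the main test was limma-trend (empirical Bayes, robust) on log2(value + 1), for genes with at least 1 in at least 3 libraries. Fold changes on this scale understate the change of low genes. GC content, length and exon number come from GENCODE M21 transcripts, matched by gene ID for 86.4% of genes, and each library's smooth trend was removed with mgcv. Levels of marker lists are sums of CPM, from recovered reads over the library's total.

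The members and gene lists were chosen with earlier results of these data known. Named genes were the members, up to 4 genes per list past the threshold with the smallest p, and the 3 most similar profiles. Maff, Arc, the cell markers given with their own values and the genes so marked in the text were named outside this rule, after their values were seen. No 2 libraries of a group agreed within sampling noise (chi-square over its degrees of freedom was 4.1 to 7.99). The scripts were tested on simulated data. Versions were limma 3.58.1, edgeR 4.0.16, mgcv 1.9.3 and DESeq2 1.42.0 under R 4.3.3, and numpy 2.4.6, pandas 2.3.3 and matplotlib 3.10.9 under Python 3.11.15.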

Additional observations from a re-analysis of the deposited data

How the results depend on the processing

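In all, 27 alternatives were run, of which 7 were chosen after seeing the data: the GC and length removal with each library left out, and with means over coding transcripts. Of the 10 immediate early genes, 8 fell in the main test and 0 rose under any alternative. The count that fell was 3 against a minimum fold of 1.2, 4 after the GC and length removal (4 also with means over coding transcripts, and 4 or 5 with a library left out), and 7 or 8 with a library left out of the deposited values. Genes past the threshold over the whole table numbered 4512, against 313 with the minimum fold, 1369 after the removal and 1646 with means over coding transcripts. With a library left out they numbered 2945 (without NTG replicate 2) to 4670 (without vehicle replicate 1), and after the removal 1405, 868 and 1396 without vehicle replicates 1, 2 and 3 and 999, 648 and 993 without NTG replicates 1, 2 and 3.

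Jun and Egr3 passed under all 27 alternatives, and Egr1 and Ier5 under all but the minimum fold (limma adjusted p = 0.0587 and 0.0891). Fos passed under none. The Fosb difference of 0.06 turned to -0.069 in edgeR, -0.076 in DESeq2 and -0.049 after the removal without vehicle replicate 1, and lay between -0.24 and 0.51 with a library left out. The fall of Junb turned to 0.014 after the removal, with or without the replicate block, and to 0.12, 0.022 and 0.016 after it without vehicle replicate 2, NTG replicate 1 and NTG replicate 3. The cause was not tested. With the replicate number as a block, 5254 genes and 8 members passed, and 1883 genes and 4 members after the removal. Same-numbered libraries did not deviate together (correlations of 0.00, -0.03 and -0.02 over genes), so the numbers were not taken to pair them. Fosb had 9 to 27 reads per library, and its vehicle libraries spread 3.03-fold. How much of its wide interval comes from depth was not tested.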
